A study of Mus musculus with 2 samples.

Results

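CCR2 and its chemokine ligands are followed here through the leukocytes of a mouse tumor, as the 5 genes *Ccr2*, *Ccl2*, *Ccl7*, *Ccl8* and *Ccl12* out of the 27031 genes counted. They were chosen by name, as the receptor and 4 ligand genes of mice, and not by a rank on measured values, though earlier results of these data were known. All 5 had at least 100 UMIs (counted molecules) in the macrophage-like cells, as did 11072 genes in all.

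The cells came from subcutaneous tumors of MC38, a colorectal cancer line, in female C57BL/6 mice aged 6 to 8 weeks. Control mice received vehicle, and treated mice received 5 mg/kg telmisartan, a blocker of the angiotensin receptor AT1R and a partial agonist of PPARγ, both by gavage each day from implantation to harvest on day 13. Live CD45+ cells were sorted, those of 5 mice per group were pooled, and each pool carried its own Sample Tag (1 for control, 2 for telmisartan) in 1 capture on the BD Rhapsody system. With 1 pool per group there is no replicate check and no test between groups, and effects of the drug, of single mice and of the handling of a pool cannot be told apart.

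As background, CCR2 is a G protein-coupled receptor that lets classical monocytes leave the bone marrow and enter inflamed tissue and tumors, and monocytes tend to lower it as they mature into macrophages. CCL2, CCL7 and CCL12 are secreted proteins that attract cells bearing CCR2. CCL8 belongs to the same group by sequence, but in mice it is best known as an agonist of another receptor, CCR8.

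The 4542 control cells kept held 41768680 UMIs, with a median of 8720.5 per cell, and the 4427 telmisartan cells held 30939085, with a median of 6365. A level in CPM is therefore the sum of a gene's UMIs over the cells, scaled to 1000000 UMIs of all genes in them. Every interval is a 95% interval for counting error alone, by the exact Poisson method for levels, the Clopper-Pearson method for shares of cells, and the conditional binomial for the log2 ratio of telmisartan over control. The cells formed 12 clusters, built without the 5 genes among the variable genes. By markers, clusters 7, 10 and 11 were dendritic-like (668 cells), 9 T-like (189) and 12 neutrophil-like (70). Clusters 1, 2, 3, 4, 5, 6 and 8, which met the marker rule of no other class, were called macrophage-like (8042). Among the leading genes of the macrophage-like clusters were *Cxcl9* and *Iigp1* in cluster 1, *Areg* and *Il1a* in 2, *Folr2* and *Cbr2* in 3, *Ifit3* and *Rsad2* in 4, *Serpinb2* and *Nos2* in 5, *Top2a* and *Mki67* in 6, and *Mcm5* and *Ung* in 8. Control macrophage-like cells lay in cluster 1 more than in any other (1424 of 4056), and telmisartan macrophage-like cells in cluster 2 (1137 of 3986). Control cells were 76.6% of cluster 1, and whether it is a cell state or a feature of the control pool was not tested.

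The receptor gene *Ccr2* was broadly expressed in macrophage-like and T-like cells and in some dendritic-like cells, with a wide range among the macrophage-like clusters. Over both groups it had 831 CPM in cluster 1 (interval 817 to 844), 790.4 in cluster 8 (758 to 824) and 637 in cluster 2 (625 to 649). The first pair overlap in their intervals, and cluster 2 lies below both over the groups together and in control cells, but not apart from them in telmisartan cells (664, 684 and 646 CPM). T-like cluster 9 had 476 CPM (433 to 523), cluster 6 had 465 and cluster 4 had 456, and neighbors in this order overlap. By group the T-like level lay above cluster 6 in control cells (586 against 471) and below it in telmisartan cells (364 against 457). Against cluster 4 (534 and 413 CPM) it pointed the same ways. With 275 and 168 T-like UMIs, its intervals overlap those of cluster 4 in both groups. The dendritic-like clusters 7 and 11 had 352 CPM (332 to 372) and 246 (216 to 279). Macrophage-like clusters 3 and 5 were the lowest of their class, at 235 CPM (227 to 243) and 219 (205 to 234), and cluster 3 overlaps with its neighbors on both sides. Neutrophil-like cells had 43.9 CPM from 6 UMIs, and dendritic-like cluster 10, led by *Fscn1* and *Ccl22*, had 18.7 CPM from 12.

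The 4 ligand genes followed another order, with cluster 3 at the top of all of them when both groups are summed. *Ccl2*, the best-known monocyte attractant, had 1866 CPM there (1844 to 1889), followed by 1490.2 in cluster 4 and 1325 in cluster 5, and its lowest macrophage-like level was 900.04 in cluster 1 (886 to 914). Cluster 5 overlaps with cluster 6 (1274 CPM). By group, cluster 5 lay below cluster 6 in control cells (1194 against 1237 CPM) and below cluster 8 in telmisartan cells (1421 against 1569). *Ccl7* had 1161 CPM in cluster 3 (1143 to 1179), 643 in cluster 4 and 333 in cluster 1, the lowest of the class over both groups, though in control cells alone clusters 2 (274 CPM) and 5 (285) lay below cluster 1 (302). *Ccl12*, a chemokine gene of rodents, had 971 CPM in cluster 3 (955 to 988) and 474 in cluster 6 (460.2 to 488), against 139 in cluster 2 and 54.8 in cluster 5 (47.7 to 62.6). *Ccl8* had 142 CPM in cluster 3 (136 to 148) and 47.1 in cluster 6 (42.8 to 51.6), which overlaps with the 39.8 of T-like cells, and it reached 4.71 in cluster 2 (3.71 to 5.89). Outside the macrophage-like cells no ligand gene passed 227 CPM over both groups, the *Ccl2* level of T-like cells.

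**Figure D1:**
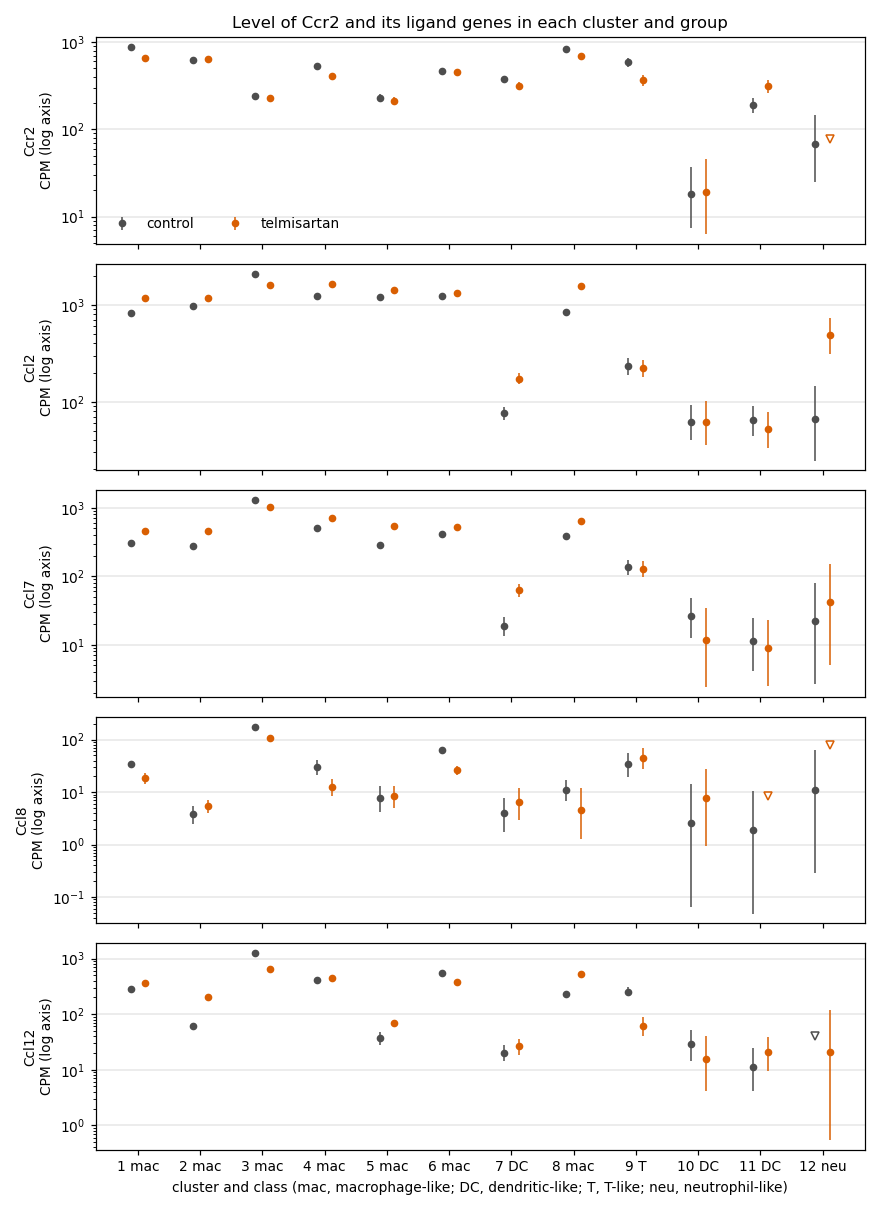
Level of *Ccr2* and the 4 ligand genes in each cluster, in CPM on a log axis, for control (grey) and telmisartan (orange) cells. Points are UMI sums over cells, bars are exact Poisson 95% intervals for counting error, and open triangles mark the upper limit of that interval where no UMI was counted. *Ccr2* is highest in clusters 1 and 8 in both groups and the ligand genes in cluster 3, except that *Ccl2* of telmisartan cells has 1626 CPM in cluster 4 and 1605 in cluster 3.

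Macrophage-like cells held 91.6% of all UMIs but 99.1% of those of *Ccl2* and of *Ccl12*, 99.3% of those of *Ccl7* and 98.1% of those of *Ccl8*. Their part of *Ccr2* was 95.1%, since dendritic-like and T-like cells added 3.77% and 1.15%. Cluster 3 alone, with 18.99% of the UMIs of all genes, held 61.5% of the *Ccl8* UMIs, 47.8% of *Ccl12*, 42.4% of *Ccl7* and 30.3% of *Ccl2*, and only 8.41% of *Ccr2*. The order of these shares ranks the ligand genes by how far they were concentrated in the *Folr2* and *Cbr2* cluster.

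The ligand genes also changed in proportion to each other. Per 100 *Ccl2* UMIs, cluster 3 had 52.0 *Ccl12* UMIs (51.0 to 53.1), clusters 1, 4, 6 and 8 had 29.1 to 37.2, cluster 2 had 12.7 and cluster 5 had 4.14 (3.59 to 4.74). For *Ccl7* the same ratio was 62.2 in cluster 3 and between 32.9 and 43.3 in the other 6 clusters. For *Ccl8* it ran from 7.61 in cluster 3 to 0.430 in cluster 2. Clusters 2 and 5, whose leading genes include *Areg*, *Il1a* and *Nos2*, thus made ample *Ccl2* with little *Ccl12* or *Ccl8*. These ratios are compared between clusters only, as capture and transcript length differ between genes.

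**Figure D2:**
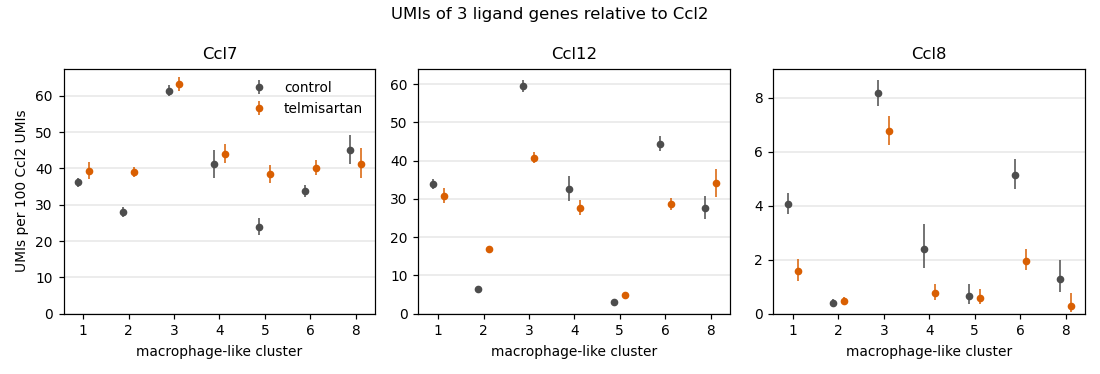
UMIs of *Ccl7*, *Ccl12* and *Ccl8* per 100 *Ccl2* UMIs in the 7 macrophage-like clusters, for control (grey) and telmisartan (orange) cells, with exact 95% counting intervals. Cluster 3 has the highest ratios, and clusters 2 and 5 the lowest ones for *Ccl12*.

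Single cells differed more for some of these genes than for others. In control and telmisartan macrophage-like cells, the 5% of cells with the most UMIs of a gene held 23.8% and 28.2% of the *Ccr2* UMIs, 35.4% and 31.4% of *Ccl2*, 46.1% and 40.6% of *Ccl7*, 60.6% and 57.0% of *Ccl12*, and 91.7% and 87.2% of *Ccl8*. The receptor transcript was thus spread over many cells and that of *Ccl8* came from few. Of the 8042 macrophage-like cells, 75 (0.933%) had at least 10 *Ccl8* UMIs, 50 of them in cluster 3, and these held 56.9% of its UMIs. The highest single cell had 281 *Ccl12* UMIs.

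Co-detection was counted after each cell was thinned to 1000 UMIs, in the 7926 macrophage-like cells deep enough. *Ccl7* was found in 42.9% of cells with a *Ccl2* UMI and in 10.8% of those without one, a log2 odds ratio of 2.64 (with 0.5 added to each cell count), and the 7 clusters ranged from 1.95 to 3.17. The log2 odds ratio was 1.66 for *Ccl2* with *Ccl12* and 2.03 for *Ccl7* with *Ccl12*, above 0 in 7 of 7 clusters for both pairs. *Ccl12* was found in 42.0% of cells with a *Ccl8* UMI and in 16.4% of those without, a log2 odds ratio of 1.88, and the share was the higher one among cells with *Ccl8* in clusters 1, 3, 6 and 8, the last with 1 such cell. With *Ccl8*, the log2 odds ratio was 0.53 for *Ccl2* (-1.46 to 1.87 over the clusters) and 1.36 for *Ccl7* (-0.32 to 1.38). *Ccl2*, *Ccl7* and *Ccl12* thus tended to share cells also inside a cluster, while for *Ccl8* the clusters differed and its cells were few.

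The receptor did not share this pattern. *Ccl8* was found in 0.813% of macrophage-like cells with a *Ccr2* UMI and in 3.71% of those without, a log2 odds ratio of -2.20 from 21 shared cells. Clusters 1 and 3 had 7 and 6 of these and log2 odds ratios of -1.60 and -1.82, and the other 5 clusters had 0 to 3 shared cells each, too few to read alone. For *Ccr2* with *Ccl12* it was -0.50, with 2 of 7 clusters above 0, and for *Ccr2* with *Ccl7* it was -0.44 and with *Ccl2* -0.17, with 4 of 7 clusters above 0 for each. Of these 4 pairs *Ccr2* and *Ccl8* were the furthest apart over all macrophage-like cells.

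Between the groups, *Ccr2*, *Ccl8* and *Ccl12* were lower and *Ccl2* and *Ccl7* higher in telmisartan macrophage-like cells per UMI counted, the last pair being lower when UMIs per cell are left unscaled. One gene, *Ccl8*, passed a 1.5-fold difference, downward, and none upward, where 2.26% of the 11072 genes (250) were at least 1.5-fold lower and 4.7% (520) at least 1.5-fold higher. The median log2 ratio of all 11072 genes was -0.04, and without scaling to depth it was -0.45, as telmisartan cells held fewer UMIs. Unscaled, *Ccr2* (-0.77), *Ccl8* (-1.13) and *Ccl12* (-0.72) passed 1.5-fold downward, where 3193 of all genes were lower and 147 higher.

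*Ccr2* had 608 CPM (599.7 to 615) in control and 473 (465 to 481) in telmisartan macrophage-like cells, a log2 ratio of -0.36 (-0.39 to -0.33). Much of this went with cluster 1, which held more control cells than any other cluster and had the highest *Ccr2* with both groups summed. Without cluster 1 the ratio was -0.05, and with the control shares of cells over the clusters applied to both groups it was -0.24. Within clusters the log2 ratio ran from -0.39 in cluster 1 (872 and 664 CPM) to 0.05 in cluster 2 (626 and 646 CPM). The interval lay below 0 in clusters 1, 4 and 8 and above 0 in none of the 7. The cells left out for over 20% mitochondrial UMIs had the other direction, 130.4 CPM in control and 169 in telmisartan cells.

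*Ccl2* had 1189.6 CPM (1179 to 1201) in control and 1366 (1352 to 1379) in telmisartan macrophage-like cells, a log2 ratio of 0.20 (0.18 to 0.22) that became -0.21 with unscaled UMIs per cell. *Ccl7* had 513 CPM (506 to 520.1) and 631 (621 to 639.9), a ratio of 0.30 (0.27 to 0.33) that became -0.11 unscaled, above the all-gene shift of -0.45 in both cases. Cluster 1, low in both ligand genes and mostly of control cells, and cluster 3, high in both, pulled these sums in opposite ways. Without cluster 1 the ratios were 0.01 for *Ccl2* and 0.06 for *Ccl7*, and without cluster 3 they were 0.41 and 0.66.

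Inside the clusters these ligand genes moved both ways, and with the control shares of cells over the clusters the ratios were 0.16 for *Ccl2* and 0.23 for *Ccl7*. *Ccl2* was higher in telmisartan cells of 6 of 7 clusters, with log2 ratios from 0.09 in cluster 6 to 0.88 in cluster 8 (850.2 and 1569 CPM), each interval above 0. *Ccl7* was higher in the same 6, from 0.35 in cluster 6 to 0.94 in cluster 5 (285 and 546 CPM). The exception for both was cluster 3, where *Ccl2* went from 2092 to 1605 CPM (-0.38, -0.42 to -0.35) and *Ccl7* from 1286 to 1017 (-0.34, -0.38 to -0.29). The cluster with the largest share of *Ccl2* and *Ccl7* transcripts thus moved against the other 6. With unscaled UMIs per cell, *Ccl2* was lower in 3 clusters instead of 1.

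*Ccl12* was also split between the clusters, with cluster 6 on the lower side beside cluster 3. Over all macrophage-like cells it had 455 CPM (448 to 462) in control and 368 (361 to 375) in telmisartan, a log2 ratio of -0.31 (-0.34 to -0.27), which became 0.10 without cluster 3 and -0.58 without cluster 1. In cluster 3 it went from 1246 to 654 CPM (-0.93, -0.98 to -0.88) and in cluster 6 from 549.6 to 378 (-0.54, -0.63 to -0.45). It was higher in the other 5 clusters, from 0.16 in cluster 4 (0.00 to 0.31) to 1.69 in cluster 2 (62.1 and 199.9 CPM, 1.54 to 1.84). The gap between cluster 3 and cluster 2 therefore narrowed, from 1246 against 62.1 CPM in control to 654 against 199.9 in telmisartan cells. Relative to *Ccl2* the narrowing was seen too, as *Ccl12* UMIs per 100 of *Ccl2* went from 59.5 to 40.8 in cluster 3 and from 6.35 to 16.8 in cluster 2.

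*Ccl8* had 56.4 CPM (54.1 to 58.9) in control and 34.1 (32.0 to 36.3) in telmisartan macrophage-like cells, a log2 ratio of -0.73 (-0.84 to -0.62). It was lower in 5 of 7 clusters, including cluster 3 (171 and 109 CPM, -0.65) and cluster 6 (63.7 and 26.0 CPM, -1.29), and the interval lay below 0 in clusters 1, 3, 4 and 6. In clusters 2 and 5, at 3.77 to 8.34 CPM, the ratios of 0.54 and 0.11 have intervals that span 0. Few cells carry this value, as 53 control and 22 telmisartan cells had at least 10 *Ccl8* UMIs, holding 65.0% and 39.0% of those counted, a count that lower depth also lowers. With each cell thinned to 1000 UMIs the ratio was -0.51, short of 1.5-fold.

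**Figure D3:**
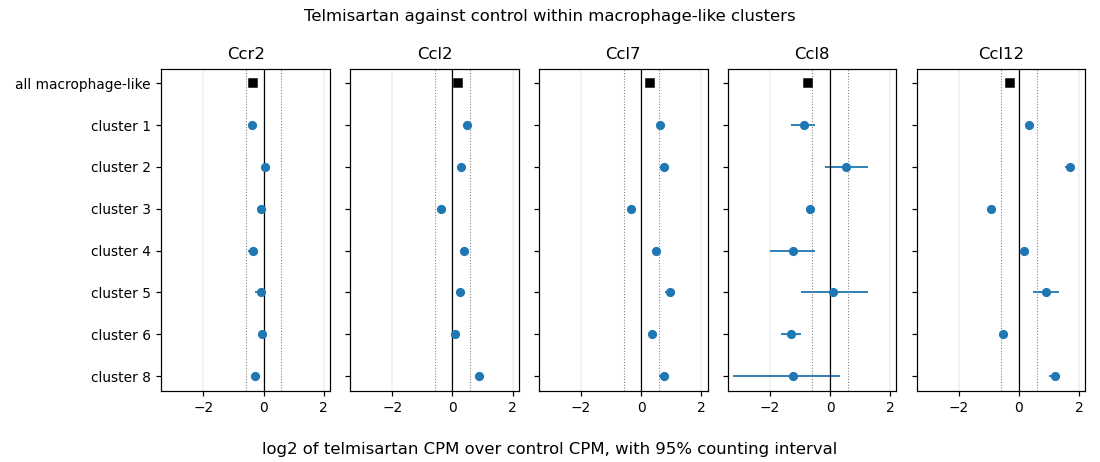
Log2 ratio of telmisartan over control CPM for each gene, over all macrophage-like cells (black squares) and within each of the 7 macrophage-like clusters (blue points), with exact 95% counting intervals and dotted lines at 1.5-fold. Cluster 3 lies below 0 for the 4 ligand genes while *Ccl2* and *Ccl7* lie above 0 in the other 6 clusters, and unscaled UMIs per cell put *Ccl2* and *Ccl7* below 0 over all macrophage-like cells.

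Shares of cells with a UMI went the same way for *Ccr2*, *Ccl2* and *Ccl7* and were nearly level for *Ccl8* and *Ccl12*. Unthinned, *Ccr2* was found in 71.2% of control and 63.6% of telmisartan macrophage-like cells, *Ccl2* in 70.4% and 76.0%, *Ccl7* in 45.3% and 52.4%, *Ccl8* in 9.42% and 8.13% and *Ccl12* in 39.8% and 38.4%. Thinned to 1000 UMIs, which left out 45 control and 71 telmisartan cells, the shares were 35.4% (33.9 to 36.9%) and 29.7% (28.3 to 31.2%) for *Ccr2*, 41.0% and 49.1% for *Ccl2*, and 21.8% and 28.7% for *Ccl7*. *Ccl12* had 17.2% (16.0 to 18.4%) and 17.1% (15.9 to 18.3%), so its lower level in telmisartan cells came with an unchanged share and fewer UMIs per positive cell. *Ccl8* had 2.94% and 2.58%, within the interval of neutrophil-like cells.

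Neutrophil-like cells, taken as the class that should lack these transcripts, gave the background of such shares. At 1000 UMIs, 1 of their 70 cells had a *Ccr2* UMI (1.43%, 0.0362 to 7.70%), 5 had a *Ccl2* UMI (7.14%), 3 a *Ccl7* UMI (4.29%), 1 a *Ccl8* UMI (1.43%, 0.0362 to 7.70%) and 0 a *Ccl12* UMI (up to 5.13%). Their median depth before thinning was 1769 UMIs, against 7579.5 in macrophage-like cells. In cluster 3 the thinned share of *Ccl8* was 8.63% (7.25 to 10.2%) and that of *Ccl12* was 35.9%, against 23.5% and 65.9% unthinned, with 0 cells left out.

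In T-like cells the receptor stood apart from the ligands. Their 443 *Ccr2* UMIs compare with 190.5 that the macrophage ratio of *Ccr2* to C1q transcripts would give, and with 117 from the ratio to *Lyz2*. The 105 T-like cells with no *C1qa*, *C1qb* or *C1qc* UMI (median depth 2563 UMIs) had 483 CPM of *Ccr2* (413 to 561). The 84 cells with one (median depth 5799 UMIs) had 472 (418 to 532). With both groups summed, the ligand genes were higher in the cells with macrophage transcripts, with 71.0 and 322 CPM of *Ccl2*, 14.2 and 202 of *Ccl7*, 8.52 and 58.8 of *Ccl8* and 39.8 and 230.2 of *Ccl12* in the same sets of cells. In telmisartan T-like cells alone *Ccl12* went the other way, with 70.3 and 53.4 CPM. Against the C1q ratio the ligand sums of T-like cells lay below for *Ccl2* (211 UMIs, 438 expected) and *Ccl7* (122 and 195), level for *Ccl12* (147 and 145) and above for *Ccl8* (37 and 16.2), where 17 UMIs were in 1 cell. By the ratio to *Lyz2*, *Ccl7* was level (119 expected) and *Ccl12* above (88.6 expected). At 1000 UMIs, 26.9% of T-like cells had a *Ccr2* UMI (20.4 to 34.1%), against 85 of 189 unthinned, with 4 control and 10 telmisartan cells left out.

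The kinds of T-like cells, with both groups summed, differed in *Ccr2*, and the difference was not tested. The 82 cells with a *Cd8a* but no *Cd4* UMI had 288 CPM (234 to 351), the 62 with *Cd4* but no *Cd8a* had 563 (490.3 to 644), and the 45 with neither had 625 (523 to 742), the last with the most C1q transcripts (2105 CPM against 1257 and 976). Over the same kinds *Ccl2* had 223, 224 and 239 CPM, *Ccl7* 99.9, 103 and 234, and *Ccl12* 220.3, 158 and 57.3. Between the groups, T-like *Ccr2* went from 586 CPM in control to 364 in telmisartan cells, a log2 ratio of -0.69 (-0.97 to -0.40) from 275 and 168 UMIs, and it was -0.69 again without the highest cell of each group. *Cd8a* cells were 28 of the 74 control and 54 of the 115 telmisartan T-like cells, and the part of this mix in the ratio was not tested. Macrophage transcripts were lower in the same telmisartan cells, with log2 ratios of -1.54 for *C1qa* and -0.61 for *Lyz2*, while *Trac* had 0.61. *Ccr2* was lower both in T-like cells with no C1q UMI (667 and 342 CPM) and in those with one (548 and 382). T-like cells were also where *Ccr8*, the receptor gene for CCL8, was highest, at 65.6 CPM against 3.11 in the next cluster.

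Summed over the class, dendritic-like cells had more *Ccr2* and less of the ligand genes than the macrophage ratio to C1q transcripts gives, while cluster 10 alone had 12 *Ccr2* UMIs with 24.3 expected. The class had 1454 *Ccr2* UMIs, with 504 expected from the C1q ratio, and 494 *Ccl2* UMIs, with 1158 expected. The 255 dendritic-like cells with no C1q UMI (median depth 5287 UMIs) had 184 CPM of *Ccr2* (163 to 207). The 413 dendritic-like cells with one (7947 UMIs) had 334, so part of it may be macrophage RNA, which was not tested. Their *Ccr2* level was close in the groups, 297 CPM in control and 278 in telmisartan cells (log2 ratio -0.09, -0.25 to 0.06), but it went from 142 to 236 CPM in those with no C1q UMI and from 358 to 299 in those with one, and *C1qa* itself had a log2 ratio of -0.99. By cluster it moved both ways, with -0.26 in cluster 7 (-0.44 to -0.09), marked by *Cd209a*, and 0.73 in cluster 11, marked by *Xcr1*, whose 92 cells went from 189 to 314 CPM. *Ccl2* went from 72.2 to 134 CPM (0.90), but 1 telmisartan cell held 90 of the 282 *Ccl2* UMIs and 55 of the 94 *Ccl7* UMIs. Without the highest cell of each group the *Ccl2* ratio was 0.51 (0.21 to 0.81), and that of *Ccl7* fell from 1.29 to 0.22 (-0.43 to 0.86).

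Over 20 sums of cells, each a cluster in 1 group with at least 50 cells, the 8645 genes with at least 500 UMIs were ranked by Pearson's r of log2(CPM + 10) with each gene. The points share 1 capture and the class differences, so r is a description and carries no test. For *Ccr2* the 4 most alike genes were *S100a10* (0.90), *Arhgdib* (0.89), *Itgb2* (0.88) and *Acaa2* (0.88), of which *Itgb2* encodes the beta chain of leukocyte integrins. For *Ccl2* they were *Ccl7* (0.98), *C3ar1* (0.97), *Gm5150* (0.96) and *C5ar1* (0.96), and for *Ccl7* they were *Ccl2*, *C5ar1* (0.96), *Lgmn* (0.96) and *Abcc3* (0.95). *Ccl2* and *Ccl7* were each other's nearest gene over these 20 points, but over 12 points, with both groups of a cluster summed and neutrophil-like cells brought in, *C3ar1* was nearest to *Ccl2* and *Abcc3* to *Ccl7*. *Ccl8* was most like *Hpgds* (0.92), *Timp2* (0.89), *Selenop* (0.86) and *Itsn1* (0.86), and *Ccl12* was most like *Itgb5* (0.95), *Ang* (0.94), *Ms4a7* (0.94) and *C1qb* (0.93). Among the 5 genes themselves r was 0.85 for *Ccl7* and *Ccl12*, 0.77 for *Ccl2* and *Ccl12*, and 0.12 for *Ccr2* and *Ccl8*. Over the 12 points, 0 of the 4 genes named for *Ccr2* came back, and 1 or 2 of those named for each ligand gene did.

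Other genes of the pathway were read in the macrophage-like cells from lists given by function. These lists, and those that follow, were chosen with earlier results of these data known. A share in them beside that of all genes is therefore a description only. Of 15 other CC chemokine genes, 9 had at least 100 UMIs, with 2 at least 1.5-fold lower (2.26% of all genes), 0 higher (4.7% of all genes) and a median log2 ratio of -0.23 beside -0.04 for all genes. The abundant *Ccl6* (1777 and 1514 CPM), *Ccl9* (1267 and 1204) and *Ccl3* (529.9 and 540.3) were less than 1.5-fold apart, as was *Ccl4* with a log2 ratio of 0.49, and *Ccl17* (-2.28) and *Ccl24* (-2.41) were the 2 lower ones. Among other receptor genes, *Ccrl2*, an atypical receptor, had a log2 ratio of 0.43, *Cx3cr1* had 0.35 and *Ccr1* 0.04, while *Ccr6* had no UMI. *Ccr2*, at -0.36, lay below each of these 3 receptor genes. The 21 genes of signal transduction from CCR2 had 0 past 1.5-fold and a median of -0.06, with *Cdc42* at -0.23, *Gnai2*, a G protein alpha subunit, at -0.25 and *Rac1* at -0.24.

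Genes that induce or restrain the ligand genes stood higher. Of 18, 16 had enough UMIs, with 8 at least 1.5-fold higher and 0 lower, against 4.7% and 2.26% of all genes, and a median log2 ratio of 0.48. The 8 were the cytokine genes *Il10* (2.29), *Il6* (1.12) and *Tnf* (0.62), the transcription factor genes *Irf1* (0.60) and *Nfkb1* (0.60), and *Zc3h12a* (0.95), *Nfkbia* (0.79) and *Tnfaip3* (0.71), which act as brakes on NF-kB signaling or its transcripts. The 3 most abundant were *Il1b* (0.36), *Fos* (-0.46) and *Zfp36* (-0.27).

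The 9 monocyte genes had 4 at least 1.5-fold higher and 0 lower, where 4.7% and 2.26% of all genes were, and a median of 0.54, although *Ccr2*, itself a mark of monocytes, was lower. *Nr4a1* had 0.68, *F13a1* 0.54, *Vcan* -0.46 and *Chil3* -0.24, and *Ly6c2*, *Plac8* and *Ms4a4c* were the other 3 past 1.5-fold. With both groups summed, the 4 genes past 1.5-fold were highest in cluster 4. That cluster held 8.28% of control and 16.9% of telmisartan cells, and its part in these ratios was not tested. The 10 maturation genes had a median of 0.01, with *C1qb* at 0.00, *C1qc* at -0.05 and *Apoe* at 1.14, the only one past 1.5-fold. Markers of other cells were also found in the macrophage-like cells of control and telmisartan. The 10 T cell markers summed to 14.2 and 15.8 CPM (*Skap1* with the most over both groups), the 8 dendritic markers to 14.2 and 16.9 (*Ccr7*), the 4 markers of *Xcr1* dendritic cells to 80.9 and 79.6 (*Wdfy4*), the 4 of *Cd209a* dendritic cells to 20.9 and 16.7 (*Clec10a*), the 6 neutrophil markers to 90.4 and 104 (*Mmp8*) and the 10 markers of cells outside the CD45 gate to 32.2 and 34.4 (*Pecam1*). Markers of NK cells (0.810 and 0.776), mast cells and basophils (0.261 and 0.212) and plasmacytoid dendritic cells (0.496 and 0.741, with *Klk1* at 0) stayed below 1 CPM. These sums hold members of either direction, as *S100a8* (-0.76) and *S100a9* (-1.12) of the neutrophil markers were lower and *Col1a1* (0.83), *Col1a2* (1.00) and *Col3a1* (0.65) from outside the gate were higher in telmisartan cells, while *Hba-a1* (-2.72), *Hbb-bs* (-1.92) and *Epcam* (-0.89), also from outside it, were lower. Their part in the ratios of *Ccr2* and its ligands was not tested.

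The 4 ligand genes are neighbors on mouse chromosome 11, and the receptor lies elsewhere. In GENCODE M21 on GRCm38, *Ccl2* (82035571 to 82037453), *Ccl7* (82045712 to 82047525), *Ccl12* (82101845 to 82103400) and *Ccl8* (82115185 to 82116799) lie on the plus strand within 81229 bases, in which 5 protein-coding genes lie whole, the remaining one being *Ccl11*. *Ccr2* lies on chromosome 9 (124101950 to 124113557, plus strand), after *Ccr3*. Order along the chromosome was not order of likeness in every case, since *Ccl12* and *Ccl8*, next to each other, had an r of 0.70, and *Ccl7* and *Ccl12*, with *Ccl11* between them, 0.85. *Ccl2* overlaps *Gm17268*, a gene annotated as protein-coding on the opposite strand, and as intronic reads were counted and use of the strand is not stated, reads of the 2 genes cannot be told apart.

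*Ccl12* and *Ccl8*, the ligand genes that lean most to cluster 3 and were lower there in telmisartan cells, are shown with the 250 bases before their start. The bases are from RefSeq on GRCm38.p6, where 3 of the 5 genes (*Ccr2*, *Ccl8* and *Ccl12*) had an entry. The window of *Ccr2* runs into the annotated *Ccr2* gene itself, which starts at 124101950. The 2 windows shown are chr11:82101595-82101844 and chr11:82114935-82115184 on the plus strand, and capitals mark TATAAA, the letters of a TATA box.
Ccl12: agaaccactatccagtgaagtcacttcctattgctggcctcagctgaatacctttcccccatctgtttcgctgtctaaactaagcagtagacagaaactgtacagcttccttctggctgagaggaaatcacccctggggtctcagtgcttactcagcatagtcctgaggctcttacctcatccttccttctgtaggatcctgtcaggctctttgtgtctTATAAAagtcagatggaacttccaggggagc
Ccl8: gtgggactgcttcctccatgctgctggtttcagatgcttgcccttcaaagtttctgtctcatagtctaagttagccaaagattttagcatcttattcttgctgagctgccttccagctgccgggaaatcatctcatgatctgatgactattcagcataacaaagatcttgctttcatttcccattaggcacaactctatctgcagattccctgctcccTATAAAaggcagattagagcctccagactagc
Both hold TATAAA at nearly the same place, bases -31 to -26 in *Ccl12* and -32 to -27 in *Ccl8*, and TATAAA is found anywhere in the window, on either strand, in 12.4% of 32851 promoters. On both strands, neither window has GGG and CC spaced by 5 bases, a form bound by NF-kB (in 45.8% of promoters), TGANTCA of AP-1 (6.75%), a pair of GAAA spaced by 2 bases of IRF factors (2.98%), TTCNNNGAA of STAT factors (7.02%) or TTGCNNAA of C/EBP (9.56%). These are matches of letters, and no binding was measured.

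Several limits bear on *Ccr2* and its ligands. Each group is 1 pool of mice, so the intervals hold counting error and no variation between mice. Of tag-called cells, 41.0% of control and 52.6% of telmisartan cells had over 20% mitochondrial UMIs and were left out. In 2623 and 4433 of these, which had at least 150 genes, the *Ccr2* ratio was 0.37 instead of -0.36. Telmisartan cells were shallower, which sets the direction of *Ccl2* and *Ccl7* when counts are unscaled. Cluster 1 holds mostly control cells, and whether it is a state or a feature of that pool cannot be told apart. Ligand protein, receptor on the cell surface and cells without CD45 were not measured.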

How the data were processed

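Expression and Sample Tags were measured in 1 capture of pooled control and telmisartan cells. The file headers name version 1.11 of the WTA pipeline of BD Rhapsody, GRCm38, GENCODE M19 and the use of intronic reads. The counts deposited by the authors are UMIs and Sample Tag reads of 20726 putative cells, not normalized.

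Cells were given to a group when 1 tag held 75% or more of 10 or more tag reads, which gave 8738 control and 10222 telmisartan cells and left out 1580 multiplets and 186 cells with few tag reads. Limits of 150 and 5000 genes per cell and of 20% mitochondrial UMIs were met by 58.1% of control and 47.3% of telmisartan cells. Scrublet marked 0 cells by its own threshold, so the 942 cells with the highest scores (9.51%, the share that the tag multiplets predict) were removed. Seurat 5.3.0 in R 4.3.3 clustered the cells with 2000 variable genes, 30 principal components, 20 neighbors and a resolution of 0.5. A cluster got a class name other than macrophage-like from at least 3 markers at least 4 times as high as elsewhere, and the others were called macrophage-like by default. These carried 11 of 11 macrophage markers, but so did T-like cluster 9, and dendritic-like clusters 7 and 11 carried 10. The count therefore does not set the macrophage-like clusters apart. Cluster 4 is shallow (2347 UMIs per cell, 0.318 of the median of all kept cells). It was named by the same rule, with 0 markers of another class passing, and *Rsad2* and *Slfn4* are among its leading genes. Sums, ratios and intervals were computed in Python 3.11.15 with numpy 2.4.6, scipy 1.17.1, pandas 2.3.3 and scanpy 1.11.5, and plotted with matplotlib 3.10.9. The ratio and its interval were tested on simulated sums drawn with counting error alone. Variation between cells or mice was not simulated, so this checks the computation only.

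The 5 genes and the lists were chosen with earlier results of these data known. From the lists of the pathway the abundant genes and those past 1.5-fold are named, from lists of markers the most abundant, and for likeness the 4 genes of highest r. A difference was counted when it reached 1.5-fold, over genes whose sum of the 2 groups was 100 UMIs or more. No p-value was made, as each group is 1 pool. Alternatives covered tag share, limits on cells, doublets, clustering, scaling (with TMM factors from edgeR 4.0.16), thinning and single clusters left out. Tumor size, histology and trajectories were not analysed here.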

Additional observations from a re-analysis of the deposited data

Results flagged for a closer look

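The log2 ratio of telmisartan over control pointed in opposite ways in different clusters for 4 of the genes, among clusters with at least 100 UMIs of the gene and an interval that leaves out 0. *Ccr2* ran from -0.69 in T-like cluster 9 to 0.73 in dendritic-like cluster 11. *Ccl2* ran from -0.38 in macrophage-like cluster 3 to 1.19 in dendritic-like cluster 7, and *Ccl7* from -0.34 to 1.73 in the same clusters, the cluster 7 values resting in part on 1 telmisartan cell. *Ccl12* ran from -2.06 in T-like cluster 9, where its UMIs were found in 9 control and 12 telmisartan cells, *C1qa* had -1.54 and cells with no C1q UMI held 0 control and 14 telmisartan UMIs of it, to 1.69 in macrophage-like cluster 2. The difference between clusters was not tested.

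Cells left out for over 20% mitochondrial UMIs also held these transcripts, at median depths of 1173 UMIs in 2623 control cells and 1143 in 4433 telmisartan cells. In telmisartan cells *Ccr2* had 169 CPM, *Ccl2* 427 and *Ccl7* 188, above the control cells left out by the same limit, with 130.4, 358 and 153. *Ccl8* had 68.3 CPM in control and 42.8 in telmisartan cells, and *Ccl12* 113 and 118. For *Ccr2* the direction is the reverse of that in the cells kept, and *Ccl12* (0.07, -0.10 to 0.24) lacks the lower level seen there. The difference was not tested.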

How the results depend on the processing

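Each ratio over macrophage-like cells was recomputed under 17 alternatives. *Ccr2* and *Ccl8* were lower in telmisartan cells in 17 of 17, *Ccl2* and *Ccl7* higher in 16 and *Ccl12* lower in 16, and 53 of the 85 values stayed within the counting interval of the reported one. The others follow, as log2 ratios, and the cause was not tested. A tag share of 90% gave -0.33 for *Ccr2*, 0.26 for *Ccl7* and -0.86 for *Ccl8*. A mitochondrial limit of 10% gave 0.26 for *Ccl2*, 0.40 for *Ccl7* and -0.16 for *Ccl12*. No gene maximum gave -0.36 for *Ccl12*, and no doublet removal -0.30 for *Ccr2* and 0.17 for *Ccl2*. Unscaled UMIs per cell gave -0.77 for *Ccr2*, -0.21 for *Ccl2*, -0.11 for *Ccl7*, -1.13 for *Ccl8* and -0.72 for *Ccl12*, with an all-gene median of -0.45. Of all genes past 1.5-fold, 67.5% were higher as reported (520 higher, 250 lower) and 4.40% unscaled (147 higher, 3193 lower). Equal weight for each cell gave -0.43 for *Ccr2*, 0.18 for *Ccl2* and -0.34 for *Ccl12*, and thinning gave -0.51 for *Ccl8*. Control shares of cells over clusters gave -0.24 for *Ccr2*, 0.16 for *Ccl2*, 0.23 for *Ccl7* and -0.22 for *Ccl12*.

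Leaving out a cluster was chosen after seeing the data. Without cluster 4 *Ccl2* had 0.18. Without cluster 1 the values were -0.0451 for *Ccr2*, 0.00723 for *Ccl2*, 0.0554 for *Ccl7*, -0.92 for *Ccl8* and -0.58 for *Ccl12*. Without cluster 3 they were 0.41 for *Ccl2*, 0.66 for *Ccl7*, -1.23 for *Ccl8* and 0.10 for *Ccl12*.

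The log2 ratio of macrophage-like over dendritic-like level, 0.93 for *Ccr2* and 4.28 for *Ccl12*, was 1.16 and 3.97 with equal weight for each cell. The number of clusters with lower *Ccl2* in telmisartan cells went from 1 to 3 unscaled. The difference in the share of cells with a *Ccl2* UMI went from 5.63 to 8.13 percentage points with thinning. Of the 4 genes most like each gene, 0 for *Ccr2*, 2 for *Ccl2*, 2 for *Ccl7*, 2 for *Ccl8* and 1 for *Ccl12* were shared when both groups of a cluster were summed, which also brought in neutrophil-like cluster 12.

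No paired analysis was possible because each group is 1 pool. Counting error is small in macrophage-like sums, while neutrophil-like, T-like and dendritic-like values rest on few UMIs, and variation between mice was not measured.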

Other observations

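Cells removed by Scrublet score (536 control, 406 telmisartan) had 499.97 and 544 CPM of *Ccr2*, 1247 and 1283 of *Ccl2*, 533 and 572 of *Ccl7*, 32.9 and 22.8 of *Ccl8*, and 428 and 320.5 of *Ccl12*. Cells with over 5000 genes numbered 74 in control and 16 in telmisartan and had 677 and 241 CPM of *Ccl12*. They had 565 and 552 CPM of *Ccr2*, 450 and 513 of *Ccl7*, and 126 and 71.1 of *Ccl8*. Their *Ccl2*, at 1197 and 919 CPM, was lower in telmisartan cells, the reverse of the cells kept. The 941 cells with 2 Sample Tags that met the other limits had 513 CPM of *Ccr2* and 1088 of *Ccl2*.

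Neutrophil-like cells had 6 *Ccr2* UMIs in control and 0 in telmisartan cells, and 6 and 23 *Ccl2* UMIs, 19 of them in 1 cell.

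Macrophage-like cells with no *C1qa*, *C1qb* or *C1qc* UMI numbered 1398, at a median depth of 3507.5 UMIs, against 8467 in the 6644 with such a UMI. The sets thus also differ in depth, and the part of depth was not tested. Cells with none had 665 CPM of *Ccr2* (645 to 685), against 538 in those with one, and 149.9 CPM of *Ccl12* (141 to 159.6), against 447. Within the cells that had none, *Ccr2* was again lower in telmisartan than in control (545 and 773 CPM). *Ccl12* (162 and 139 CPM) and *Ccl8* (6.17 and 5.25) were not lower there, with intervals that overlap. *Ccl2* was level (1231 and 1225 CPM) and *Ccl7* higher (438 and 370).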
